A study of Mus musculus with 10 samples.

Results

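The genes of MHC class I antigen presentation were followed in cells traced from alveolar type II (AT2) cells of the mouse lung, in wildtype lungs and in lungs that held mutant and wildtype cells side by side. The set held 8 genes, H2-K1, H2-D1, B2m, H2-Q4, H2-Q7, H2-T23, Tapbp and Nlrc5, matched by symbol among the 31053 genes listed for every library. Each symbol matched 1 gene, and all 8 passed the filter on low counts. Cells were traced with Sftpc-CreERT2, a tamoxifen-activated recombinase driven from the surfactant protein C gene, so labelling was limited to Sftpc-expressing cells and their progeny. In Sftpc-CreERT2; R26R-Confetti mice both the RFP+ and the YFP+ cells were wildtype, and each colour gave 1 library. In Sftpc-CreERT2; Red2Kras mice the RFP+ cells were mutant and the YFP+ cells in the same lungs were wildtype neighbours, with 2 libraries of each colour at 4 days and 2 at 2 weeks after tamoxifen. All mice received 3 doses of 0.2 mg tamoxifen per g body weight, were about 8 weeks old by the study's methods and of both sexes (background mixed, C57BL/6Brd-Tyrc-Brd), and each library pooled at least 2 lungs. EpCAM+ cells of each colour were sorted from distal lung. The Confetti labels state no time, and the methods place these mice at 2 weeks. The labels do not say that equal replicate numbers came from the same lungs, so p-values measure the spread between these pools.

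MHC class I molecules carry short peptides from proteins made inside the cell to the surface, where CD8+ T cells read them. A heavy chain (H2-K1 or H2-D1 for the classical molecules of the mouse) pairs with the light chain beta-2-microglobulin, encoded by B2m. Tapasin, the product of Tapbp, holds the empty molecule at the TAP peptide transporter until a peptide binds. H2-Q4, H2-Q7 and H2-T23 encode non-classical heavy chains, of which H2-T23 (Qa-1) presents peptides to receptors of natural killer cells. Nlrc5 is the transactivator of class I genes, and interferons and NF-kB signalling are known to raise their transcription. Tumours of the lung are known to lose class I at times, and AT2 cells carry class II molecules as well.

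In GRCm38, 6 of the 8 genes lie on chromosome 17 between positions 33915899 and 36032855, a stretch of 2.12 Mb that holds the mouse MHC. They are Tapbp (33915899 to 33929292, plus strand), H2-K1 (33996017 to 34000347, minus strand), H2-D1 (35262730 to 35267499, plus strand), H2-Q4 (35379617 to 35385290, plus strand), H2-Q7 (35439155 to 35443773, plus strand) and H2-T23 (36029773 to 36032855, minus strand). B2m lies on chromosome 2 (122147686 to 122153083, plus strand) and Nlrc5 on chromosome 8 (94434356 to 94527272, plus strand). All 8 are annotated as protein coding.

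The sequences just before the start sites of 3 genes are shown, as examples of a classical heavy chain (H2-K1), a non-classical one (H2-Q7) and the light chain (B2m). These are RefSeq promoters of GRCm38.p6 on the strand of the gene, 5′ to 3′, each ending next to the start site and limited to bases outside every annotated exon. Capitals mark matches, searched on both strands, to GGG, any 2 bases, TT, any base and CC (a kappa B site), AANNGAAA (part of an interferon-stimulated response element), TGACG (the X2 box) and ATTGG (the Y box).
H2-K1, chr17:34000348-34000527, minus strand: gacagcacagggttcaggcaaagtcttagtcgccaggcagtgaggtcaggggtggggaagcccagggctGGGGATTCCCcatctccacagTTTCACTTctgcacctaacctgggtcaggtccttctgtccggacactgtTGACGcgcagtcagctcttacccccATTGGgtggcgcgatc
H2-Q7, chr17:35438975-35439154, plus strand: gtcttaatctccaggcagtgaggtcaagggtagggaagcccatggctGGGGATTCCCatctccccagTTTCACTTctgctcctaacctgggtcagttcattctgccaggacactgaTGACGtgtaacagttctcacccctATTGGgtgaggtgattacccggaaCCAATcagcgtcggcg
B2m, chr2:122147507-122147685, plus strand: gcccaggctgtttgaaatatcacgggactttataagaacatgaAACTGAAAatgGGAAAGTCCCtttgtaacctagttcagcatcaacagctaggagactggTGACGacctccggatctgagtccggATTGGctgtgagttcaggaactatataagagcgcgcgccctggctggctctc
In 250 bases upstream of the start, H2-K1, H2-D1, B2m, H2-Q4 and H2-Q7 each held a match to all 4 motifs. H2-T23 held matches to the interferon element and the Y box, and Tapbp to the Y box alone, although the RefSeq start of Tapbp lies 3579 bases from the GENCODE gene start. Among 27025 promoters of the same length, 4% held the kappa B letters, 21.6% those of the interferon element, 17.9% those of the X2 box and 34.5% those of the Y box. These matches are descriptions of letters, and binding was not measured.

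Of 42012 barcodes, 32698 passed the study's filters, and 29529 alveolar cells with no UMI (a count of 1 captured RNA molecule) of the leukocyte gene Ptprc were summed per library. The smallest library, YFP+ replicate 2 at 2 weeks, summed to 7310471 UMIs and the largest, RFP+ replicate 1 at 2 weeks, to 71151829, and the median cell held 3251 to 15799 UMIs. Between 3.15% and 42.3% of filtered cells were left out as immune, endothelial, mesenchymal or ciliated, with the highest share in 2-week YFP+ replicate 2. The AT2 marker Sftpc stood in every library at 65020 to 197100 CPM (UMIs scaled to a common library total). Replicates at 4 days stood far apart, since AT2-like clusters made up 82.7% of RFP+ and 89.4% of YFP+ cells in replicate 1 but 2.59% and 1.36% in replicate 2. Summed UMIs of 10 immune markers stayed between 2.3 and 19.2 CPM, with 1 to 3 markers at 0 in each library and the highest sum in 2-week YFP+ replicate 2. The 5 airway secretory markers summed to 2510 and 2500 CPM in Confetti RFP+ and YFP+, 67 to 506 in Red2Kras RFP+ and 297 to 975 in Red2Kras YFP+ libraries, with 0 to 3 of them at 0. The 5 ciliated markers summed to 95.7 and 95.8 CPM in Confetti, 15.5 to 61.5 in Red2Kras RFP+ and 53.9 to 84 in Red2Kras YFP+ libraries, with 0 to 2 of them at 0. Both lists thus moved with the Confetti and Red2Kras groups, and their part in the class I differences was not tested. Pairs of libraries shared 1 to 17 cell barcodes. In such sums, fewer cells of a type and less RNA per cell cannot be told apart.

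The classical heavy chain gene H2-K1 was lowest in the Confetti libraries and in 1 RFP+ library. It stood at 775 CPM (scaled by edgeR's TMM factors) in Confetti RFP+ and 716 in Confetti YFP+, at 915 and 1113 in the 4-day RFP+ replicates and 979 and 1963 in the 4-day YFP+ replicates, and at 1123 and 755 in the 2-week RFP+ and 1747 and 1620 in the 2-week YFP+ replicates. At 2 weeks both YFP+ libraries lay above both RFP+ libraries, as in 25% of 13741 genes, whereas at 4 days the groups overlapped, with YFP+ replicate 1 between the RFP+ replicates. H2-D1, the other classical heavy chain gene, stood at 856 and 669 CPM in Confetti RFP+ and YFP+, 976 and 973 in 4-day RFP+, 995 and 1818 in 4-day YFP+, 1226 and 1056 in 2-week RFP+ and 1591 and 1656 in 2-week YFP+. All 8 Red2Kras libraries exceeded both Confetti libraries for H2-D1 (so ordered in 5.21% of 13741 genes), and 7 of 8 did for H2-K1.

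The light chain gene B2m varied more between libraries. It stood at 224 and 181 CPM in Confetti RFP+ and YFP+, 328 and 484 in 4-day RFP+, 296 and 808 in 4-day YFP+, 517 and 230 in 2-week RFP+ and 684 and 530 in 2-week YFP+. All 8 Red2Kras libraries exceeded both Confetti libraries, although 2-week RFP+ replicate 2 did so by less than 10 CPM. The highest library held 4.46 times the lowest for B2m, against 2.74 times for H2-K1 and 2.72 times for H2-D1.

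Among the non-classical heavy chains, H2-Q7 had the widest range, 11.3-fold between the lowest and the highest library. Its level was 19.6 CPM in Confetti RFP+ and 18.4 in Confetti YFP+, 56.1 and 101 in 4-day RFP+, 43.3 and 209 in 4-day YFP+, 127 and 41.7 in 2-week RFP+ and 193 and 106 in 2-week YFP+. Every Red2Kras library lay at more than double the Confetti level, and RFP+ and YFP+ libraries overlapped at each time. H2-Q4 stood at 38.5 and 44.2 CPM in Confetti RFP+ and YFP+, 52.8 and 50.9 in 4-day RFP+, 55.6 and 87.3 in 4-day YFP+, 53.2 and 30.1 in 2-week RFP+ and 93.1 and 65.4 in 2-week YFP+. All 4 Red2Kras YFP+ libraries exceeded all 4 RFP+ libraries for H2-Q4, as they did for 4.72% of 13741 genes. H2-T23 had the narrowest range, 1.77-fold, from 74.3 CPM in Confetti YFP+ and 88.4 in Confetti RFP+ to 98.8 and 75.3 in 4-day RFP+, 116 and 130 in 4-day YFP+, 84.2 and 115 in 2-week RFP+ and 114 and 132 in 2-week YFP+. In 15 of the 16 pairings of a Red2Kras YFP+ with an RFP+ library, H2-T23 was higher in the YFP+ library. The share of all genes with such a count of pairings was not determined.

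Tapbp, whose product loads peptide, ordered the libraries differently. It stood at 72.1 and 83.4 CPM in Confetti RFP+ and YFP+, 65.6 and 71.3 in 4-day RFP+, 84.5 and 106 in 4-day YFP+, 54.9 and 45.0 in 2-week RFP+ and 87.2 and 88.9 in 2-week YFP+. All 4 Red2Kras RFP+ libraries lay below both Confetti libraries and all 4 YFP+ libraries lay above both. The margins were as small as 71.3 against 72.1 and 84.5 against 83.4 CPM. All 4 YFP+ libraries exceeded all 4 RFP+ libraries in 4.72% of 13741 genes, and the share with Confetti in between was not counted. The transactivator gene Nlrc5 was near the limit of detection, with 263 UMIs in all 29529 cells. It gave 0.373 and 0.539 CPM in Confetti RFP+ and YFP+, 0.468 and 2.87 in 4-day RFP+, 1.06 and 1.81 in 4-day YFP+, 1.30 and 0.507 in 2-week RFP+ and 1.83 in each 2-week YFP+ library. RFP+ and YFP+ libraries overlapped for Nlrc5 at 4 days and not at 2 weeks. There both YFP+ libraries lay above both RFP+ libraries, as in 25% of 13741 genes, on 11 to 97 UMIs of Nlrc5 per library.

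**Figure D1:**
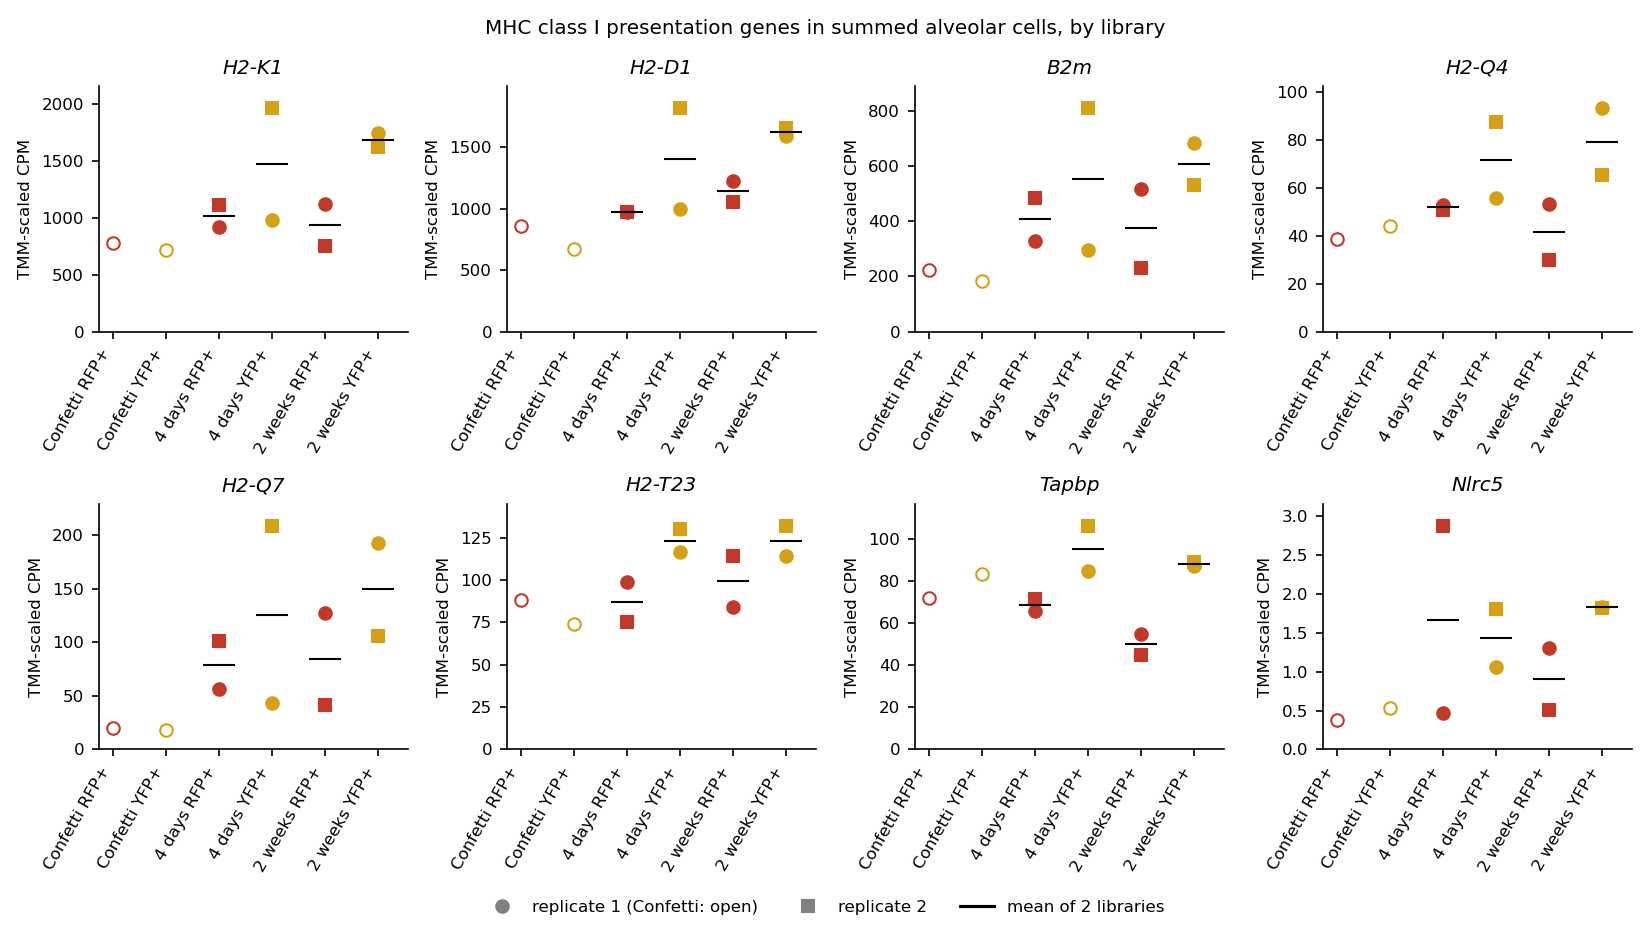
TMM-scaled CPM (vertical axes, from 0) of the 8 class I genes in each of the 10 libraries, by group; circles are replicate 1, squares replicate 2, open symbols the Confetti libraries and black bars the mean of 2 libraries. For H2-Q4 and Tapbp the 4 Red2Kras YFP+ libraries (gold) lie above the 4 RFP+ libraries (red), as for 4.72% of all genes, and for H2-Q7 all 8 Red2Kras libraries lie above the Confetti libraries, as for 5.21%.

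The comparison of mutant RFP+ cells with their wildtype YFP+ neighbours asks whether class I levels differed between mutant and wildtype cells exposed to the same lung. All 8 genes were lower in RFP+ than in YFP+ cells over both times on average, but none passed an adjusted p of 0.05 (edgeR quasi-likelihood test with Benjamini-Hochberg adjustment), and neither did any of the 13178 genes tested (0% called, with 2856 at an unadjusted p under 0.05; DESeq2 called 1294, or 9.82%). The log2 difference was -0.71 (SE 0.27) for H2-K1, -0.54 (SE 0.23) for H2-D1 and -0.60 (SE 0.36) for B2m. H2-Q4 gave -0.72 (SE 0.25), H2-Q7 -0.78 (SE 0.51) and H2-T23 -0.42 (SE 0.18). Tapbp had the smallest adjusted p of the 8, 0.0913 by edgeR, at a log2 difference of -0.67 (SE 0.17, lower in each RFP+ library than in each YFP+ library). Unadjusted, 5 of the 8 genes were under 0.05 (H2-K1, H2-D1, H2-Q4, H2-T23 and Tapbp), where 21.7% of all tested genes were. The median over the 8 was -0.63, beside a median of -0.02 over all genes, of which 52.1% were below 0. DESeq2 called Tapbp (log2 difference -0.64, SE 0.18). Without 4-day YFP+ replicate 2 the difference was -0.32 for H2-D1, -0.27 for B2m and -0.21 for H2-Q7, and without 2-week RFP+ replicate 2 it was -0.18 for Nlrc5, against -0.49 (SE 0.59) with all libraries. AT2 markers moved with the colours as well. Sftpc stood at 133400 and 65020 CPM in 4-day RFP+ against 154800 and 162400 in 4-day YFP+, and at 67000 and 69530 in 2-week RFP+ against 134600 and 197100 in 2-week YFP+ libraries. At 2 weeks 7 of the 8 AT2 markers (all but Sftpb) were lower in both RFP+ than in both YFP+ libraries, an order seen in 25% of all genes, among them Etv5 at 118 and 54.3 against 256 in each, and their part in the class I difference was not tested.

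At 2 weeks the difference was below 0 for all 8 genes, with log2 values of -0.84 (SE 0.40) for H2-K1, -0.93 (SE 0.36) for H2-Q4, -0.82 (SE 0.24) for Tapbp, -0.82 (SE 0.76) for H2-Q7, -0.70 (SE 0.54) for B2m, -0.51 (SE 0.35) for H2-D1, -0.31 (SE 0.28) for H2-T23 and -1.0 (SE 0.84) for Nlrc5. None passed, as 0% of 13741 genes did by edgeR (2249 at an unadjusted p under 0.05, 468 by DESeq2), and the smallest adjusted p was 0.215, for Tapbp. Without 2-week RFP+ replicate 2 these differences were -0.26 for both B2m and H2-Q7, -0.61 for H2-Q4 and -0.52 for Nlrc5, and without 2-week RFP+ replicate 1 that of H2-T23 was -0.12. At 4 days 7 of 8 genes were below 0, from -0.68 (SE 0.76) for H2-Q7 to -0.44 (SE 0.54) for B2m, and Nlrc5 stood at 0.12 (SE 0.87). Again 0% of 13741 genes passed (789 at an unadjusted p under 0.05, 108 by DESeq2), and no member was under 0.05 unadjusted. The 4 days differences of H2-K1, H2-D1, B2m and H2-Q7 rested on YFP+ replicate 2, without which H2-K1 stood at 0.06, H2-D1 at -0.02, B2m at 0.46, H2-Q7 at 0.86 and Tapbp at -0.30. That of Nlrc5 was -1.62 without RFP+ replicate 2 and -0.19 without YFP+ replicate 1. The change of the RFP+ to YFP+ difference between times was tested as an interaction, in which 0% of 13741 genes passed (210 at an unadjusted p under 0.05, 0 by DESeq2) and no member did (smallest unadjusted p 0.35, for Tapbp).

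**Figure D2:**
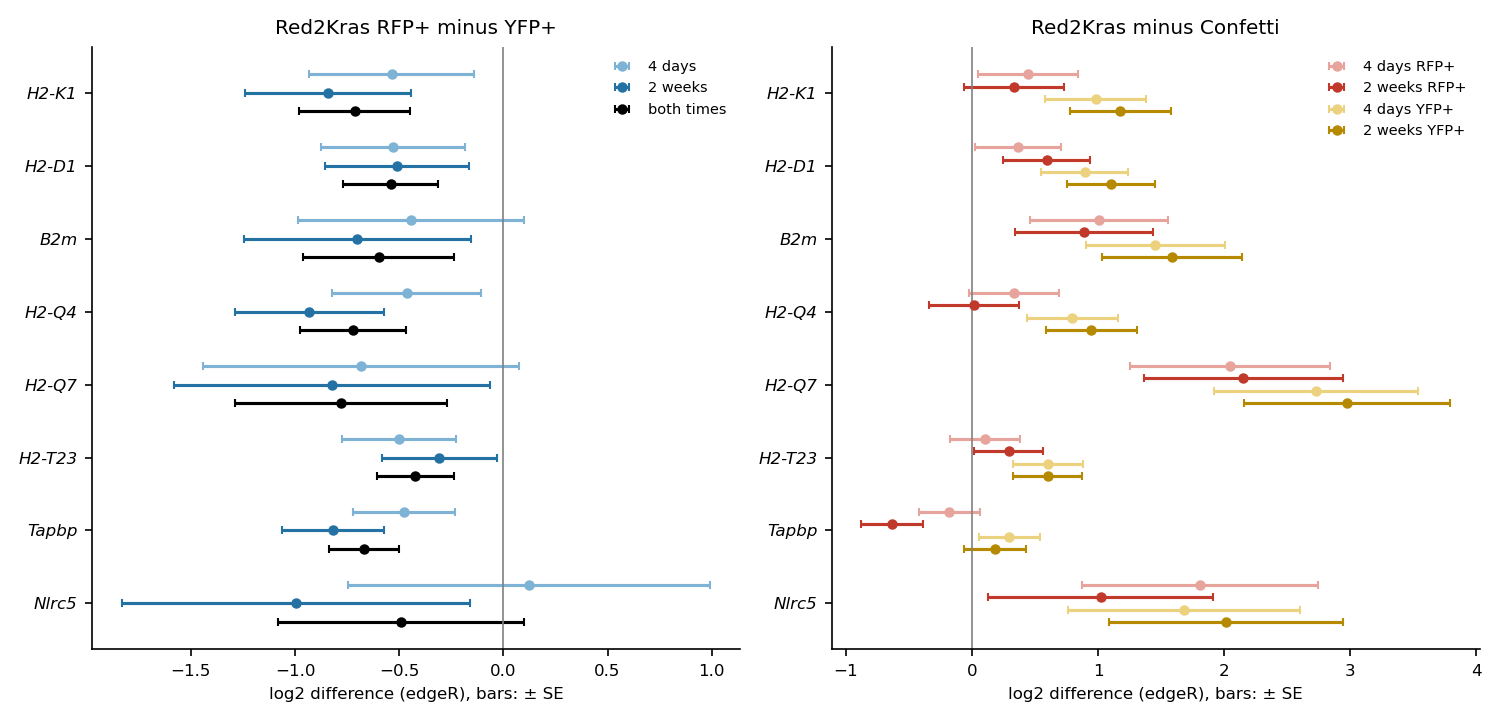
Log2 differences (horizontal axes) of the 8 class I genes with bars of ± 1 SE, from the edgeR fits; the left panel gives Red2Kras RFP+ minus YFP+ at 4 days, at 2 weeks and over both times, the right panel each Red2Kras group minus the mean of the Confetti libraries. On the left the values over both times run from -0.42 for H2-T23 to -0.78 for H2-Q7, and on the right H2-Q7 reaches 2.98 in 2-week YFP+ cells while Tapbp lies at -0.63 in 2-week RFP+ cells.

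Against the wildtype Confetti lungs, the YFP+ wildtype neighbours showed higher class I levels for all 8 genes at both times, without any passing the test. At 2 weeks their log2 differences from Confetti were 2.98 (SE 0.82) for H2-Q7, 1.59 (SE 0.55) for B2m, 1.18 (SE 0.40) for H2-K1, 1.1 (SE 0.35) for H2-D1 and 0.95 (SE 0.36) for H2-Q4, with an edgeR adjusted p of 0.768 for each. H2-T23 (0.60, SE 0.28) and Tapbp (0.18, SE 0.24) stood nearer 0. The background for this comparison was 3 genes called of 13741 (0.0218%), and 5 of the 8 members against 5.63% of all genes were under an unadjusted 0.05. At 4 days the YFP+ differences were 2.73 (SE 0.81) for H2-Q7, 1.45 (SE 0.55) for B2m, 0.98 (SE 0.40) for H2-K1 and 0.89 (SE 0.35) for H2-D1, where 4 genes in all were called (0.0291%). No member was among them. These values rested on YFP+ replicate 2, without which they were 1.19 for H2-Q7, 0.56 for B2m and 0.40 for both H2-K1 and H2-D1. DESeq2 called H2-Q7 in the YFP+ comparisons at 4 days (12 of 13741 genes called, 0.0873%) and 2 weeks (99, 0.72%).

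In RFP+ cells the differences of H2-K1, H2-D1, B2m, H2-Q4, H2-Q7 and H2-T23 from Confetti were smaller than in YFP+ cells at each time, although the gap between the colours did not pass the test above. At 2 weeks H2-Q7 was 2.15 (SE 0.79) and B2m 0.89 (SE 0.55) above Confetti on the log2 scale, H2-D1 0.59 (SE 0.35), H2-K1 0.33 (SE 0.40) and H2-Q4 0.02 (SE 0.36), while Tapbp was below it, at -0.63 (SE 0.24). edgeR called 737 of 13741 genes in this comparison (5.36%), 470 higher and 267 lower, and 0 of the 8 members (2 under an unadjusted 0.05, H2-Q7 and Tapbp, where 31.1% of all genes were). DESeq2 called 1 member, H2-Q7, and 2189 genes in all (15.9%), so neither count exceeds its background. The 737 calls rested on single libraries, with 1 left without either Confetti library and 2 without 2-week RFP+ replicate 2. Without RFP+ replicate 1 of 2 weeks H2-K1 stood at -0.0015, H2-Q4 at -0.475, B2m at 0.17 and H2-Q7 at 1.12, while H2-D1 stood at 0.39 without Confetti YFP+, and H2-Q4 was also just below 0 without Confetti RFP+ (-0.0864) or either YFP+ library of 2 weeks. At 4 days H2-Q7 was 2.05 (SE 0.79), B2m 1.01 (SE 0.55) and H2-K1 0.45 (SE 0.40) above Confetti, with Tapbp at -0.18 (SE 0.24) and H2-T23 at 0.10 (SE 0.28; -0.104 without RFP+ replicate 1 of 4 days and -0.0326 without Confetti YFP+), and 0% of 13741 genes passed (1200 at an unadjusted p under 0.05, 263 by DESeq2). The 4 comparisons share the same 2 Confetti libraries, 1 per colour. Confetti and Red2Kras mice differ in genotype for the reporter as well as in having mutant neighbours. The 4-day groups also differ from Confetti in time after tamoxifen, which the methods place at 2 weeks for Confetti. These differences cannot be told apart.

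From 4 days to 2 weeks no member passed in either colour, with 0% of 13741 genes called in RFP+ cells (1518 at an unadjusted p under 0.05, 131 by DESeq2) and 0% in YFP+ cells (223 and 16). The smallest unadjusted p among the members was 0.0985 in RFP+ cells, for Tapbp, and 0.564 in YFP+ cells, for H2-D1.

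Other genes of the pathway, taken from lists by role, were read beside the members. Over both times no other listed gene passed between RFP+ and YFP+ cells, whether among heavy chains, loading, proteasome, regulators, inhibitory ligands, interferon response or class II genes. All 5 immunoproteasome genes, whose products cut peptides suited to class I, were below 0 (median -0.54), with Psmb9 at -0.89 (SE 0.31) and Psmb8 at -0.74 (SE 0.32). The 3 constitutive counterparts had a median of -0.12. Of 7 other heavy chain genes tested 6 were below 0 (median -0.40), of 12 interferon response genes 9 were (median -0.58), and of 7 MHC class II genes 7 were (median -0.54), beside 52.1% of all genes. Peptide transport and loading genes were mixed, with 3 of 7 below 0. Tap2, a subunit of the peptide transporter, stood at -0.58 (SE 0.17), while the endoplasmic reticulum chaperone genes Calr (0.40, SE 0.19) and Pdia3 (0.35, SE 0.23) were above 0. Of 15 regulators 11 were below 0 (median -0.19), and Ifngr2, Ifnar1, Jak1 and Rela were above it. The lowest, Jak2, a kinase of the interferon-gamma receptor, gave -1.05 (SE 0.18, edgeR adjusted p 0.0665), with 15.4 and 11.1 CPM in 2-week RFP+ against 31.2 and 31.0 in 2-week YFP+ libraries.

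Against Confetti, 2 of 58 other listed genes passed (3.45%), both in 2-week RFP+ cells, where 5.36% of all genes did, so the lists as a whole did not stand above the background. Fcgrt, which encodes a class I-like Fc receptor that carries no peptide, fell from 25.3 and 22.5 CPM in the Confetti libraries to 6.9 and 4.5 in 2-week RFP+ libraries (log2 difference -2.06, SE 0.36, edgeR adjusted p 0.0394). It stood at 19.4 and 23.6 CPM in 2-week YFP+ libraries. Ifngr2, a chain of the interferon-gamma receptor, rose from 19.8 and 15.7 CPM to 40.4 and 53.3 (log2 difference 1.41, SE 0.28, edgeR adjusted p 0.0439). Both calls were lost in all filtered cells, and without either 2-week RFP+ library, any 1 YFP+ library or either Confetti library, with Fcgrt between an edgeR adjusted p of 0.0142 and 0.207 and Ifngr2 between 0.0239 and 0.214 over all libraries left out in turn. All 12 interferon response genes had a log2 difference above 0 in each of the 4 Red2Kras groups, and none passed. Of all genes, 47.9% to 49.1% were below 0 in these comparisons, which share the same Confetti libraries. Ifit1, Ifit3, Gbp3 and Rsad2 stood at 0 to 0.124 CPM in Confetti, near the limit of detection. Bst2, an interferon-induced membrane protein gene, gave 51.4 and 43.4 CPM in Confetti, 78.8 and 199 in 4-day RFP+, 58.1 and 272 in 4-day YFP+, 148 and 159 in 2-week RFP+ and 189 and 224 in 2-week YFP+ libraries.

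Single cells were compared after thinning each to 2000 UMIs, which left out 18 shallower cells. The sum of H2-K1, H2-D1 and B2m UMIs averaged 3.6 per cell in Confetti RFP+ and 3.36 in Confetti YFP+, 4.28 and 5.32 in 4-day RFP+, 4.27 and 7.93 in 4-day YFP+, 6.29 and 4.19 in 2-week RFP+ and 7.52 and 6.42 in 2-week YFP+ libraries. Nearly every cell carried at least 1 of these UMIs. Cells with none made up 1.91% (95% exact binomial interval 1.44 to 2.47) of 4-day YFP+ replicate 2, 2.23% (1.81 to 2.72) and 2.49% (1.62 to 3.65) of the 2-week YFP+ replicates, and 4.84% (4.19 to 5.54) and 7.37% (6.42 to 8.41) of the 2-week RFP+ replicates. At 4-day RFP+ cells gave 5.39% (4.68 to 6.16) and 6.1% (4.91 to 7.47) and YFP+ replicate 1 gave 5.68% (4.63 to 6.89). In wildtype lungs the shares were 6.5% (5.74 to 7.33) for Confetti RFP+ and 7.11% (6.33 to 7.96) for Confetti YFP+. The intervals cover counting error only. The share of cells with 10 or more of these UMIs went from 2.69% in Confetti YFP+ to 31.2% in 4-day YFP+ replicate 2, and reached 21.1% and 8.24% in the 2-week RFP+ replicates.

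The variance of the 3-gene sum was 2.16 and 2.14 times its mean in Confetti RFP+ and YFP+ cells, 2.58 in 4-day YFP+ replicate 1, 2.62 in 4-day RFP+ replicate 1 and between 2.84 and 4.76 in the other libraries, a ratio that grows with the mean where counts vary more than by chance sampling. Within each library, UMIs of H2-K1 and H2-D1 correlated over cells at r = 0.242 to 0.55, and those of H2-K1 and B2m at 0.252 to 0.529, as a description of cells that share a library and clusters. Cells with an H2-Q7 UMI made up 3.03% and 3.35% of the Confetti RFP+ and YFP+ libraries, 8.19% and 14.4% of 4-day RFP+, 6.33% and 23.6% of 4-day YFP+, 17.6% and 6.97% of 2-week RFP+ and 22.7% and 13.7% of 2-week YFP+ cells. An Nlrc5 UMI was seen in 0.0526% to 0.491% of thinned cells per library, so its level in single cells was not measurable at this depth. Class I genes are expressed in most cell types, so no sorted population lacked them as a background for free RNA. Ciliated cells held 495 CPM of H2-K1 and 185 of B2m, and immune cells 1105 and 1852.

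**Figure D3:**
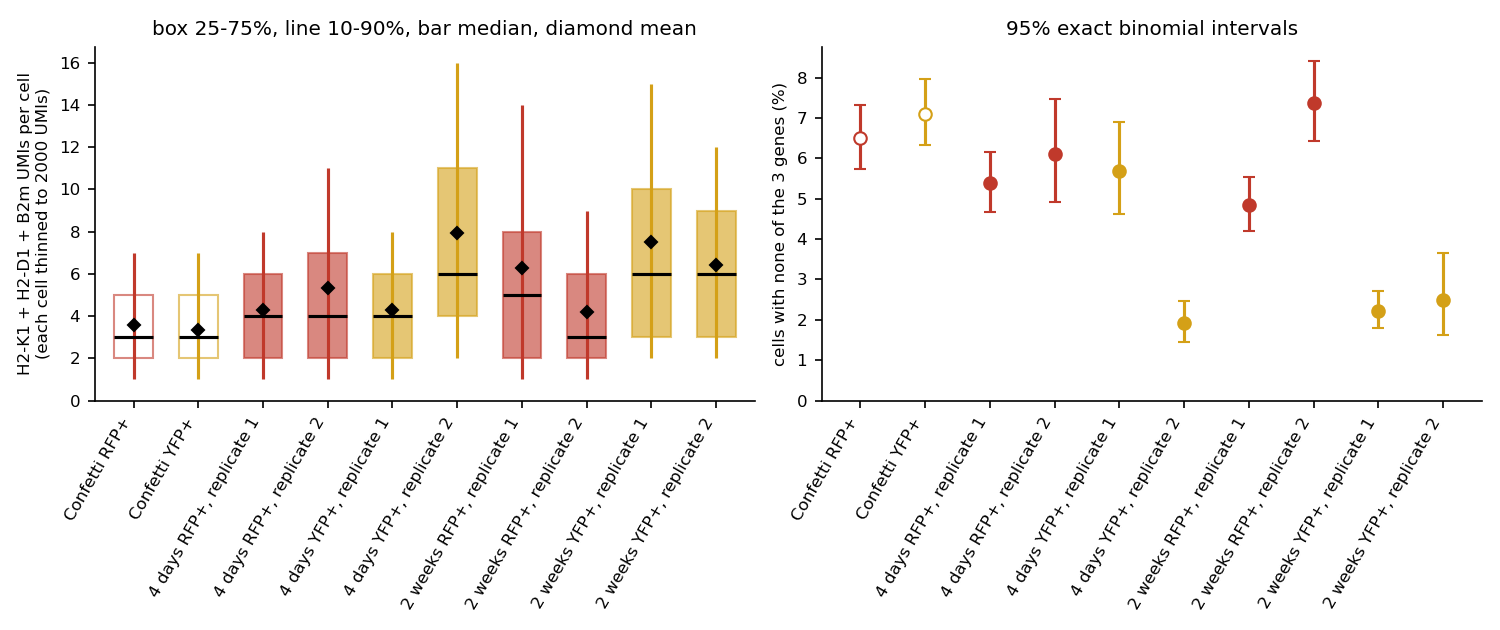
Left, UMIs of H2-K1, H2-D1 and B2m together per cell after thinning to 2000 UMIs, with the median (bar), the 25 to 75% range (box), the 10 to 90% range (line) and the mean (diamond) of each library; right, the percentage of cells with none of these UMIs and its 95% exact binomial interval. Means run from 3.36 in Confetti YFP+ to 7.93 in 4-day YFP+ replicate 2, and 3 of the 4 Red2Kras YFP+ libraries have under 2.5% of cells with none.

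Levels were then read by cell state, from 11 clusters of alveolar cells built without the class I genes and named from markers, with no test since the clusters come from the same cells. In AT2-like cells of the cluster led by Gpx3, H2-K1 lay between 799 and 1068 CPM (893 ± 113, SD, n = 5 libraries). The primed AT2-like clusters, marked by Lcn2 and Lrg1 (genes of an inflammation-primed AT2 state), were higher. H2-K1 averaged 1515 ± 176 CPM (SD, n = 5) in the cluster led by Ifi27l2a and Lrg1, and 1624 and 1806 in RFP+ and YFP+ cells of 2 weeks replicate 1 in a cluster led by the heat shock gene Hspa1b. H2-Q7 gave 26.9 ± 11.7 CPM (n = 5) in the Gpx3 cluster and 116 ± 20.7 (n = 5) in the Lrg1 cluster. Tapbp differed less, with 80.2 ± 13 and 88.0 ± 5.2 CPM. The sets of libraries differ, with both Confetti libraries in the Gpx3 cluster only. The libraries in both clusters were 4-day RFP+ replicate 1 and 2-week YFP+ replicate 1. From the Gpx3 to the Lrg1 cluster, H2-K1 there went from 857 to 1286 and from 1068 to 1725 CPM. H2-Q7 went from 39.2 to 94.1 and from 36.4 to 118, and Tapbp from 71.2 to 89.6 and from 66.8 to 95.3.

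Cells like damage-associated transient progenitors (DATP, an intermediate between AT2 and AT1 cells marked by Krt8 and Cldn4) had low H2-K1 and Tapbp levels, and 3 libraries, all RFP+, held 50 or more cells of the DATP-like cluster led by Itga2. There H2-K1 stood at 740 CPM in 4 days replicate 2 and 675 and 512 in 2 weeks replicates 1 and 2, H2-Q4 at 23.2, 14.7 and 13.2, H2-Q7 at 31.0, 26.9 and 6.8, and Tapbp at 50.7, 47.7 and 38.3. Tapbp lay below every library of both AT2-like clusters (63.0 to 99.7). H2-K1 lay below every Gpx3-cluster library but overlapped with the AT2-like cluster led by Chia1 (721 to 1015), and B2m, at 367, 340 and 137, lay on both sides of the Gpx3 cluster (188 to 261). A smaller DATP-like cluster led by Gzme, with 92.7% of its cells from 2-week RFP+ replicate 1, had 390 CPM of H2-K1 and 5.9 of H2-Q7. H2-T23 gave 51.0, 81.3 and 156 CPM in the Itga2 cluster and 160 in the Gzme cluster, beside 82.6 to 109 in the Gpx3 cluster. At the finer clustering resolution of 1.5, the DATP-like cells of 2-week RFP+ replicate 2 had 87.3 CPM of H2-T23, 22.5 of Tapbp and 12.8 of H2-Q7. An unnamed cluster led by Meg3 and Dlk1, which held 51.8% of 2-week RFP+ replicate 2, had 1213 and 951 CPM of H2-K1 and 54.0 and 51.6 of Tapbp in the 2-week RFP+ replicates, so its Tapbp lay below both AT2-like clusters and its H2-K1 did not.

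A small cluster carried by far the highest class I levels. It was led by Ccl20, Iigp1, Isg15 and Gbp2, which are chemokine and interferon-induced genes, held 334 cells and between 0.109% and 4.53% of each library, and fell to the primed AT2-like name by its 6 detected markers, although none of those was among its 10 leading genes. In 4-day YFP+ replicate 2 (133 cells) and 2-week YFP+ replicate 1 (101 cells) it had 3812 and 4453 CPM of H2-K1, 3056 and 3800 of H2-D1, 1937 and 2250 of B2m, 614 and 869 of H2-Q7, 184 and 254 of H2-Q4, 484 and 547 of H2-T23 and 181 and 191 of Tapbp. Nlrc5 also had its highest level there, 10.0 and 8.7 CPM from 9 and 6 UMIs. Cycling cells had 1790 and 1877 CPM of H2-K1 in Red2Kras YFP+ libraries, 801 to 1256 in Red2Kras RFP+ libraries and 1145 and 1030 in Confetti RFP+ and YFP+. Their H2-T23 lay between 51.7 and 85.8 CPM over 8 libraries.

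**Figure D4:**
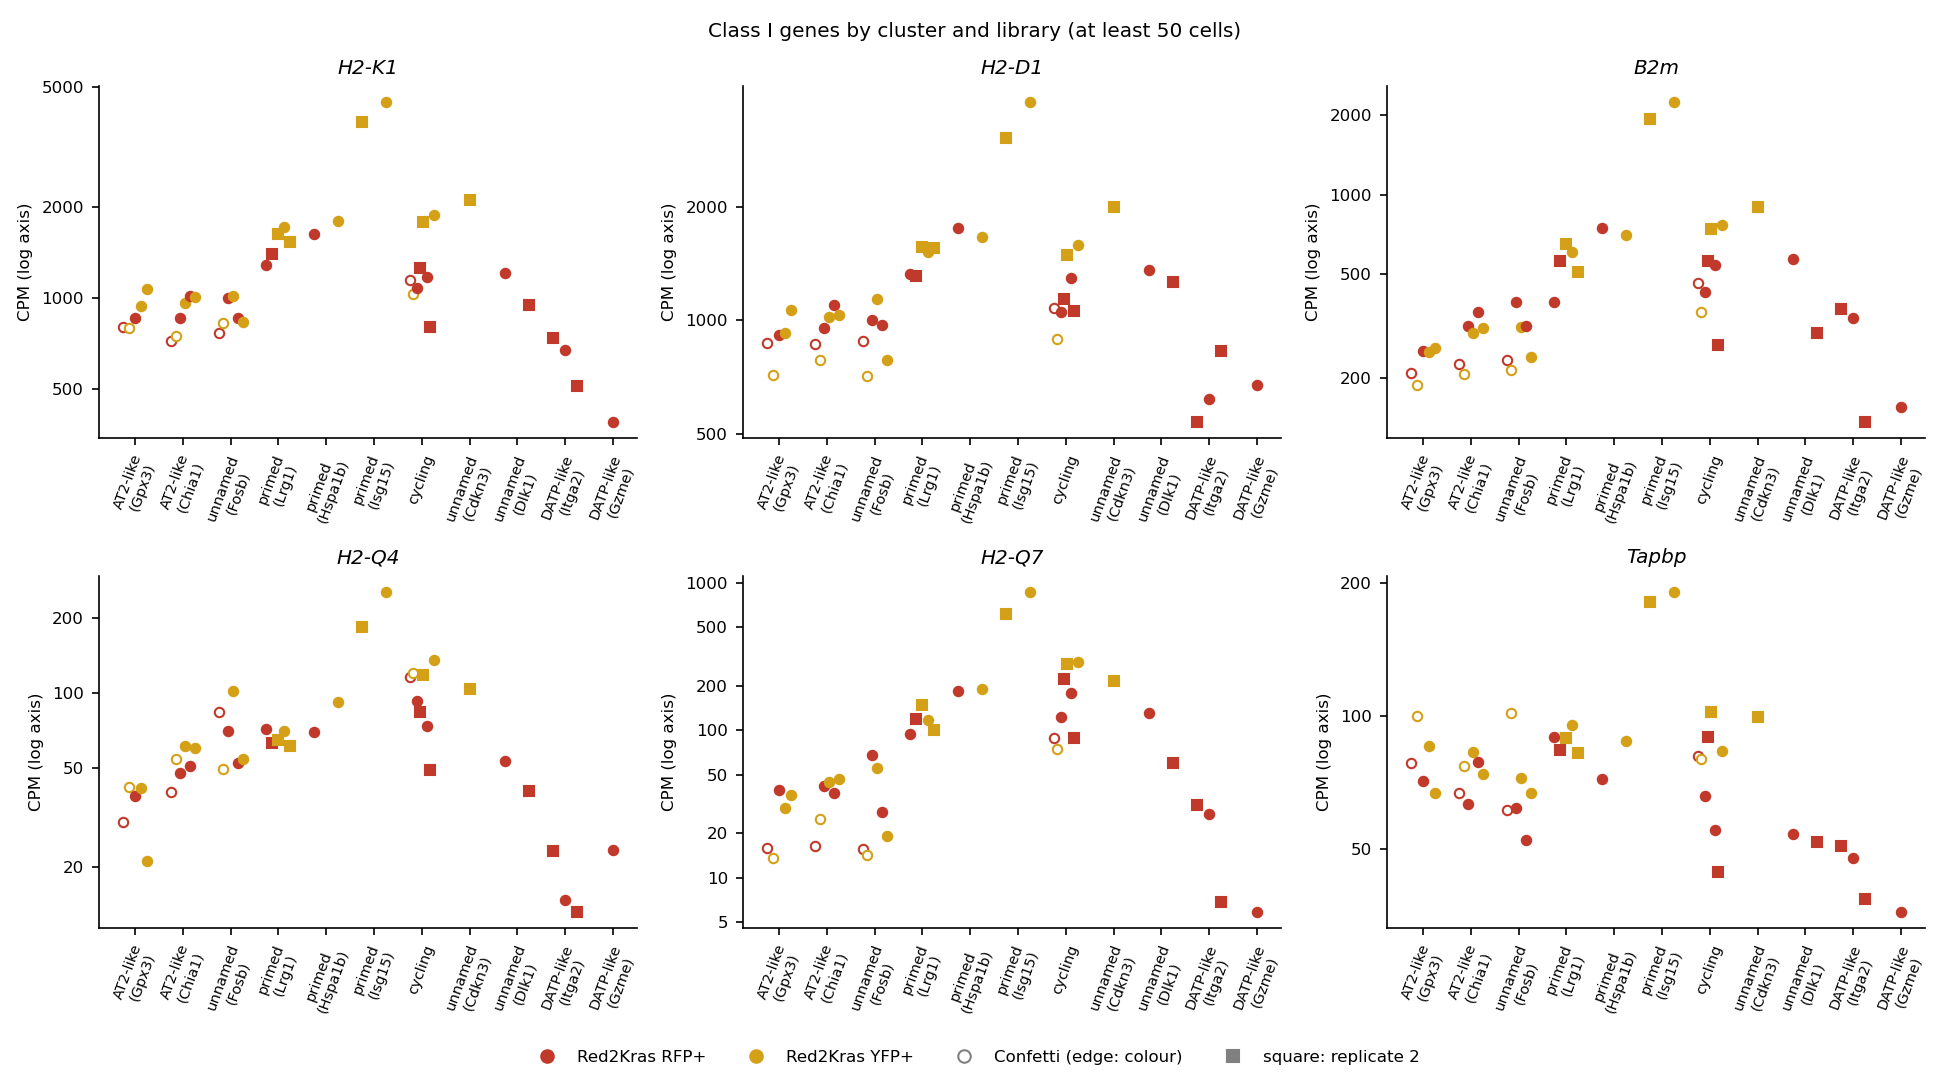
CPM (log axes) of H2-K1, H2-D1, B2m, H2-Q4, H2-Q7 and Tapbp in each cluster, with 1 point per library that had at least 50 cells there; red is RFP+, gold YFP+, open symbols Confetti and squares replicate 2, and clusters other than cycling cells are marked with a leading gene. The cluster with Isg15 lies highest for all 6 genes, reaching 4453 CPM of H2-K1, and the DATP-like cluster with Gzme lies lowest for H2-K1, at 390 CPM.

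The mix of states differed between the colours along with the class I levels, and the part of this mix in the levels was not tested. DATP-like cells made up 1.1% and 36.3% of 4-day RFP+ and 21.2% and 40.5% of 2-week RFP+ libraries, against 0.118% to 2.79% of the Red2Kras YFP+ libraries. In 2-week RFP+ replicate 2 that share depended on the clustering, since 1116 cells were DATP-like here and 224 at the finer resolution of 1.5. Primed AT2-like cells, with the Isg15 cluster counted among them, made up 2.43% and 86.6% of 4-day YFP+ and 73.8% and 82.9% of 2-week YFP+ libraries, against 2.83% and 47.3% of 4-day RFP+ and 41.7% and 0.725% of 2-week RFP+ libraries. RFP+ and YFP+ cells of 1 cluster were set side by side where libraries with the same time and replicate number each held 50 or more of its cells, which gave 9 pairs and none in 2 weeks replicate 2. Over whole libraries the YFP+ to RFP+ ratio of TMM-scaled CPM was 1.07 and 1.76 at 4 days and 1.56 and 2.15 at 2 weeks for H2-K1, and 0.904, 1.67, 1.32 and 2.3 for B2m. Within a cluster the median ratio of plain CPM was 1.11 (0.965 to 1.59) for H2-K1, 1.07 (0.808 to 1.31) for H2-D1, 0.94 (0.763 to 1.43) for B2m and 1.07 (0.685 to 1.63) for H2-Q7. The scaling differs, so whole-library and within-cluster ratios are not directly comparable. B2m was higher in YFP+ cells in 3 of 9 pairs and H2-K1 in 7 of 9.

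H2-Q4 and H2-T23 were higher in YFP+ cells in each within-cluster pair, and Tapbp in all but the Chia1 cluster of 2 weeks replicate 1. YFP+ cells were higher in 9 of 9 pairs for H2-Q4 (median ratio 1.29, from 1.03 to 1.84), in 9 of 9 for H2-T23 (1.15, from 1.04 to 1.64) and in 8 of 9 for Tapbp (1.2, from 0.936 to 1.51). For H2-K1, B2m and Tapbp the largest ratio was in cycling cells of 2 weeks replicate 1, where YFP+ against RFP+ stood at 1877 to 1177 CPM for H2-K1, 769 to 538 for B2m and 83.2 to 55.1 for Tapbp. The pairs all come from replicates 1 and 2 of 4 days and replicate 1 of 2 weeks, so they share libraries and are not replicates. These ratios were given no test, and the share of all genes with such counts of pairs was not counted.

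**Figure D5:**
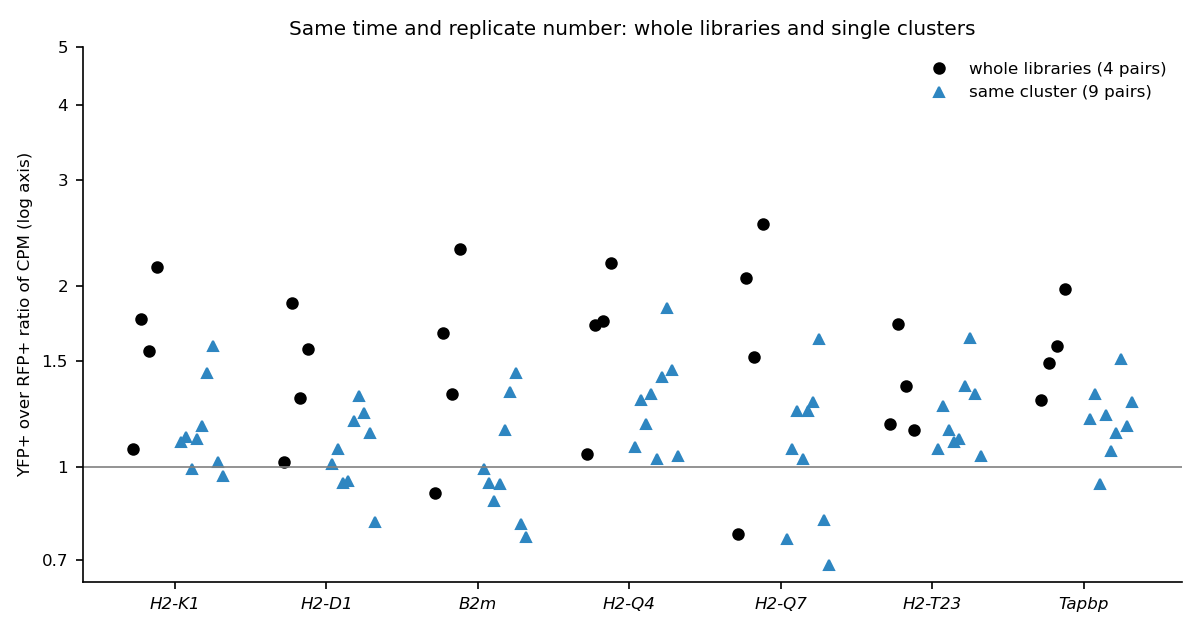
YFP+ over RFP+ ratios of CPM (log axis) for 7 class I genes in libraries of the same time and replicate number, over whole libraries (black circles, 4 pairs, TMM-scaled) and within single clusters (blue triangles, 9 pairs, plain CPM). The circles reach 2.54 for H2-Q7, whereas the triangles of B2m centre on 0.94 and those of H2-Q4 and H2-T23 all lie above 1.

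Over the 10 libraries, which differ in depth and in their mix of states, log levels of B2m and H2-Q7 had r = 0.978 and those of H2-K1 and B2m r = 0.953. The part of depth and mix in these correlations was not tested. Tapbp and H2-T23 were less like them, Tapbp at 0.604 with H2-K1, 0.422 with B2m and 0.274 with H2-Q7, and H2-T23 at 0.591, 0.432 and 0.439. Outside the 8 genes and among 4822 compared, the gene closest to H2-K1 was Psmb9, an immunoproteasome subunit (r = 0.964), followed by Gnptab (0.943) and Cd59a (0.931). For B2m they were Vma21 (0.946), H2-Q6 (0.932) and Ube2a (0.924), and for Nlrc5, at its very low counts, Itsn2 (0.965), Bpnt1 (0.932) and Zfp703 (0.931).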

How the data were processed

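Libraries of droplet-based 3′ single-cell RNA were deposited as filtered count matrices, in which the authors counted UMIs per gene and cell on GRCm38 with Cell Ranger (3.1.0 in the submitters' processing notes, 5.0.1 in the matrix headers). Following the study's methods, cells were kept with at least 1000 genes, at most 50000 UMIs and at most 15% of UMIs from mitochondrial genes. Cells were clustered (scanpy 1.11.5, 5000 variable genes without class I genes, 30 components, 20 neighbours, Louvain resolution 0.8) and named from marker lists. Non-alveolar clusters and cells with a Ptprc UMI were left out. No doublets were removed in the main fit, and an alternative left out the 816 of the summed cells that were among the 940 filtered cells with the highest Scrublet scores.

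Counts were summed per library and tested with edgeR 4.0.16 (R 4.3.3; filterByExpr, TMM, glmQLFit and glmQLFTest with 6 groups as coefficients, or colour with time as a term in the 8 Red2Kras libraries) and Benjamini-Hochberg adjustment over all genes tested, threshold 0.05. The SE is the log2 difference divided by the root of its F statistic. The Confetti level is the mean of both coefficients. CPM by cluster are plain CPM of UMIs outside mitochondrial genes. The tests recovered known changes in simulated counts. DESeq2 1.42.0, RLE factors, no filter, other cell sets, thinning, each library left out and a replicate block were alternatives. The 8 genes were all named in each comparison, and likeness was Pearson's r of log2(CPM + 1) over genes with a mean of at least 20 CPM.

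In the last 400 bases of the transcripts, 20.6% of 75-base stretches of H2-Q4 and 19.9% of H2-T23 occurred in another gene's transcript, and 0 in the other members. Tapbp overlaps Zbtb22 on the same strand (2129 UMIs, against 15533 of Tapbp). How alleles other than those of the C57BL/6J reference mapped was not tested. Members and lists were chosen with earlier results of these data known. RefSeq promoters were found for 7 of the 8 genes.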

Additional observations from a re-analysis of the deposited data

How the results depend on the processing

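All 8 members missed the threshold with RLE factors, in other cell sets, after thinning, without cells of high Scrublet scores and without any 1 library, in all 10 comparisons. With no filter on low counts, H2-Q4 and H2-Q7 passed over both times (2 members), H2-Q7 in each RFP+ group against Confetti (1 member) and B2m and H2-Q7 in each YFP+ group against Confetti (2 members). DESeq2 called 1 member, Tapbp, over both times (9.82% of all genes), and 1, H2-Q7, in 2-week RFP+ (15.9%) and in 4-day and 2-week YFP+ (0.0873% and 0.72%) against Confetti. Unfiltered, edgeR called 504, 1379 and 1947 genes between RFP+ and YFP+ at 4 days, 2 weeks and both times, 817 and 3225 in RFP+ and 134 and 527 in YFP+ against Confetti, 699 and 184 between times and 50 for the interaction. Over both times it called 17 genes after thinning and 1468 without 4-day RFP+ replicate 1. In 2-week RFP+ against Confetti it called 3 in all filtered cells without a Ptprc UMI, 0 in all filtered cells, and 1 to 1902 without 1 library. The cause was not tested. Differences between times changed sign in 11, 18 and 17 values of RFP+, YFP+ and interaction.

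The labels do not say that equal numbers share lungs. Deviations of same-numbered RFP+ and YFP+ libraries correlated at 0.471 at 4 days and 0.628 at 2 weeks over 13741 genes, which are only 2 independent values. Across times, those of same-numbered libraries correlated at 0.0207 to 0.299. With replicate number as a replicate block, 2 members (H2-Q4 and Tapbp) passed at 2 weeks and 2 over both times, calls rose from 0 to 147 (4 days), 2195 and 2221 genes, and Nlrc5 at 4 days was -0.0654.

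Other reversals were small or rested on 1 library. Leaving out each library in turn, RFP+ minus YFP+ at 4 days ranged from -0.952 to 0.0578 for H2-K1, -0.994 to 0.459 for B2m, -1.41 to 0.863 for H2-Q7 and -1.62 to 0.983 for Nlrc5. Against Confetti it ranged from -0.104 to 0.285 for H2-T23 in 4-day RFP+, and from -0.0015 to 0.56 for H2-K1 and -0.475 to 0.336 for H2-Q4 in 2-week RFP+, where all filtered cells gave H2-Q4 -0.0654. The libraries that turned a sign were 4-day YFP+ replicates 1 and 2, 4-day RFP+ replicates 1 and 2, 2-week RFP+ replicate 1, 2-week YFP+ replicates 1 and 2, and each Confetti library.

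With all UMIs of each cell in place of 2000, the mean share of cells with a UMI was 94.7% for H2-K1, 95.7% for H2-D1, 71.2% for B2m, 27.6% for H2-Q4, 26.3% for H2-Q7, 42.2% for H2-T23, 36.9% for Tapbp and 0.91% for Nlrc5, all above the thinned shares. Member levels averaged over the 10 libraries moved by less than their SD in other cell sets, but in all filtered cells 2-week RFP+ replicate 2 went from 229.9 to 537.1 CPM of B2m and from 0.507 to 1.33 of Nlrc5. State means at resolution 1.5 also moved by less than the SD over libraries, while H2-T23 in DATP-like cells of that library went from 156.6 to 87.3 CPM. Depth limits Nlrc5, with 263 UMIs in all.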
